A study of Mus musculus with 4 samples.

Results

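The thrombospondins (*Thbs1*, *Thbs2*, *Thbs3*, *Thbs4* and *Comp*) and the tenascins (*Tnc*, *Tnn* and *Tnxb*) were followed in single cells of the mouse hindlimb at E14.5. The 8 genes were taken by symbol, as a listed gene family, from the 32288 genes of the feature table. The data were 4 libraries of hindlimb cells (femur and tibia in the series' design text, the whole hindlimb in the study's own account), S1 and S3 sorted as tdT+ and S2 and S4 as tdT-, from 2 collections. In each library Pan-Cart-p21MOE cells (p21 hereafter) had been mixed with controls of the opposite sex, so that each cell's condition was read from its *Xist* or Y-linked transcripts. S1 and S2 held p21 males with control females, and S3 and S4 held p21 females with control males.

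The p21 embryos carried *Col2a1-rtTA*, which acts in cartilage, with *Tigre* TRE-p21, *Gli1* CreER and *R26* LSL-tdT. Controls lacked *Col2a1-rtTA* but carried the other 3 alleles and had the same drugs. Doxycycline, which switches p21 on through rtTA, was given at 1 mg/ml in water and in food from E12.5. The expression is mosaic, and the study found p21 in only part of the chondrocytes of this model. Here p21 therefore names the genotype, and each p21 sum mixes cells with and without induced p21. Tamoxifen, at 120 µg/g by gavage at E13.5, marked cells of the *Gli1* lineage with tdTomato (tdT). After filters on depth, doublets and sex, 2739 cells of 18955 barcodes were kept, 101 to 779 cells per library and condition, with a median of 16770 to 26906 unique molecular identifiers (UMIs) per cell by library. Adding up UMIs by library and condition gave 4 sums per condition. As these came from both fractions of 2 embryo pools, p values measure the spread between sums that share embryos. Of all barcode sequences, 40 occurred in more than 1 library, and 2 of these were among kept cells.

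Thrombospondins and tenascins are secreted matricellular proteins. They sit in the matrix and bind collagens, growth factors and integrins rather than build fibres themselves. *Thbs1* and *Thbs2* encode trimers known for limiting vessel growth, and *Thbs1* also for activating latent TGF-beta, whereas *Thbs3*, *Thbs4* and *Comp* encode pentamers. COMP, the cartilage oligomeric matrix protein, binds collagens II and IX and matrilins and is mutated in pseudoachondroplasia. Tenascin-C (*Tnc*) is known from condensing mesenchyme, perichondrium and tendon, tenascin-W (*Tnn*) from bone-forming sites, and tenascin-X (*Tnxb*) from loose connective tissue.

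In the GRCm38 annotation of GENCODE, all 8 are protein-coding genes. The thrombospondin genes lie at chr2:118111876-118127133 (*Thbs1*), chr17:14665500-14694235 (*Thbs2*), chr3:89215180-89226837 (*Thbs3*), chr13:92751590-92794818 (*Thbs4*) and chr8:70373558-70382066 (*Comp*). The tenascin genes lie at chr4:63959785-64047015 (*Tnc*), chr1:160085029-160153580 (*Tnn*) and chr17:34670535-34719815 (*Tnxb*). *Thbs2*, *Thbs4*, *Tnc* and *Tnn* are read from the minus strand and the others from the plus strand.

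Promoter windows of RefSeq (GRCm38.p6) matched 6 of the 8 genes, all but *Thbs1* and *Comp*. The 250 bases before the start are shown for *Tnc* (chr4:64047016-64047265, minus strand) and *Thbs2* (chr17:14694263-14694512, minus strand), the genes that passed a test here, and for *Thbs4* (chr13:92794819-92795068, minus strand), whose level was highest in tendon and perichondrial cells. Capitals mark matches on either strand to a core promoter motif (TATAAA), the motif of AP-1 factors (TGANTCA) or that of TEAD factors (GGAATG).
Tnc: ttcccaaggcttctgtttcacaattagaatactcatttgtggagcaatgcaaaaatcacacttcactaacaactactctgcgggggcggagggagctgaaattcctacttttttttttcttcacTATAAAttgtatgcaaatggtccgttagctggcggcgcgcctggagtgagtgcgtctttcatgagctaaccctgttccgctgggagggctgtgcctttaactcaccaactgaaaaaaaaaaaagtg
Thbs2: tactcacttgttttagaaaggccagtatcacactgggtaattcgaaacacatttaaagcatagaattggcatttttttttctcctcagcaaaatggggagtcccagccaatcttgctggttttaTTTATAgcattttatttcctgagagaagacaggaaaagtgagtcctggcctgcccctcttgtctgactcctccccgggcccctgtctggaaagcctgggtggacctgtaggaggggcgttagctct
Thbs4: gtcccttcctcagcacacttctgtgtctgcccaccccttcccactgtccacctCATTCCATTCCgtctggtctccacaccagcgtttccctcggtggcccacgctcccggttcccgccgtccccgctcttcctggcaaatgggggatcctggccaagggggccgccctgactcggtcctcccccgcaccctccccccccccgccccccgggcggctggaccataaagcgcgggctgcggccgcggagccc
The *Tnc* window held TATAAA 126 to 121 bases before the start, and the *Thbs2* window held it at the same distance on the other strand. In *Thbs4*, GGAATG occurred on the other strand 197 to 192 and 192 to 187 bases before the start, the matches overlapping by 1 base. None of the 3 windows held TGANTCA. Among all 32851 windows of this length, 12.4% held TATAAA, 6.75% TGANTCA and 12.6% GGAATG. A match describes these letters and is not evidence of binding.

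The kept cells were clustered with the 8 genes, sex-linked markers, transgenes and 528 cycle-correlated genes left out, and clusters were named from marker lists. Resting chondrocyte-like (210 cells, 7 of 7 markers), proliferative (299, 6 of 6), hypertrophic or prehypertrophic (96, 6 of 6) and general chondrocyte-like clusters (269) made up the chondrocytes. Hereafter "-like" is left out, and the hypertrophic or prehypertrophic class is called hypertrophic for short. Its markers included *Ihh* and *Pth1r* as well as *Col10a1* and *Ibsp*. The class was not split, so its levels place a gene in neither stage alone. The other named classes were perichondrium or groove (246 cells, 4 of 6 markers), tendon (77, 5 of 5), osteoprogenitor (52, 7 of 7), muscle (50, 7 of 7) and immune (30, 7 of 7). The heat shock genes *Hspa1a* or *Hspa1b* were among the 10 leading genes of the resting cluster and of 1 proliferative cluster. Other clusters kept a number, since no list led clearly. Cluster 3 (330 cells), led by *Epha3*, *Erc2*, *Runx2*, *Alpl* and *Aspn*, held 5 of 7 osteoprogenitor and 4 of 6 perichondrium markers. The class named perichondrium or groove passed on *Ogn*, *Postn*, *Fgf18* and *Ebf1*, without *Aspn* and *Nt5e*. It thus held no more perichondrium markers than cluster 3, and its name does not make it the only perichondrial class. Tendon cells came mainly (79.2%) from S4, and clusters 18 and 20 (78 and 36 cells, all p21) came from 1 library almost alone (93.6% S3 and 100% S4). So did cluster 21 (12 cells, all p21 and all S4), 1 of the 2 general chondrocyte clusters. Without these 3 clusters, an alternative added after the data were seen, *Tnc* in p21 chondrocytes (-0.90, adjusted p = 0.0161 by edgeR) and *Thbs2* in tdT+ mesenchyme (0.61, adjusted p = 0.0372 by edgeR) were still called. As a check of the condition, the transgene sequence WPRE was at 1033 to 1988 CPM (the gene's UMIs divided by all UMIs of the sum, scaled to a fixed total and, in comparisons of sums, by TMM factors) in p21 and 71.3 to 711 CPM in control chondrocyte sums, without overlap. Both the tdTomato and the p21 transgene carry WPRE, so controls hold it too, and within controls it was higher in tdT+ (444 and 711 CPM) than in tdT- sums (71.3 and 120 CPM). *Cdkn1a*, the gene of p21 itself, was at 54.0 to 75.6 CPM in p21 and 24.3 to 96.0 CPM in control, and overlapped. By the study's account, reads of the p21 transgene fall mostly on WPRE in this 3'-biased method. *Cdkn1a* counts therefore say little about the transgene.

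Levels by class, in CPM of summed UMIs with the SD over libraries of at least 5 cells, describe the clusters and were not tested, since the classes come from the same cells. *Comp* was highest in hypertrophic or prehypertrophic chondrocytes, *Thbs1* in general chondrocytes and that class, *Thbs4* in tendon and then perichondrium, and *Thbs2* in cluster 3. *Tnc* was high in tendon, in cluster 7 and in several other classes, and *Thbs3* was nearly even. Among classes of at least 2 libraries, *Tnn* was highest in cluster 7 (35.4 CPM), with cluster 11 next (17.5 CPM). *Tnxb* gave 134 UMIs in all and no class mean of at least 2 libraries above 4.93 CPM.

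*Comp* was higher at each step from resting to proliferative to hypertrophic cells in 3 of 3 libraries with enough cells. Resting chondrocytes were at 58.7, 92.9, 65.8 and 66.4 CPM in S1 to S4, and proliferative chondrocytes at 197, 330, 311 and 338 CPM. Hypertrophic chondrocytes were at 1182, 797 and 1266 CPM in S2, S3 and S4. Neither step overlapped, and the mean of hypertrophic cells, 1082 ± 249.7 CPM (SD, n = 3), was 14.4 times that of resting cells in the same libraries. General chondrocytes (71.0 ± 17.3 CPM, n = 4) overlapped resting cells, and perichondrium was lowest of the 16 classes compared (7.36 ± 7.49 CPM, n = 4). Immune cells, which should lack *Comp*, were at 82.0 CPM in S4, and 33.3% of them held a *Comp* UMI after each cell was thinned to 5000 UMIs (95% exact binomial interval 17.3% to 52.8%, for counting error only). After the same thinning 80% of hypertrophic, 54.3% of proliferative, 27.8% of general and 22.3% of resting chondrocytes held one. Without thinning these shares were 86.5%, 74.9%, 51.3% and 46.7%, against 63.3% of immune cells, at median depths of 15870.5, 26909, 23313, 22701 and 12546.5 UMIs. The shares in resting and general chondrocytes thus did not exceed that in immune cells, of which there were only 30. They did exceed those in perichondrium (3.29%) and tendon (6.49%), which lay at 1.30 to 16.9 and 0 to 16.5 CPM by library. How much free RNA adds to the values of resting and general chondrocytes was not tested. Thinning left out 16, 34, 6, 8 and 0 cells of hypertrophic, proliferative, general and resting chondrocytes and immune cells.

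**Figure D1:**
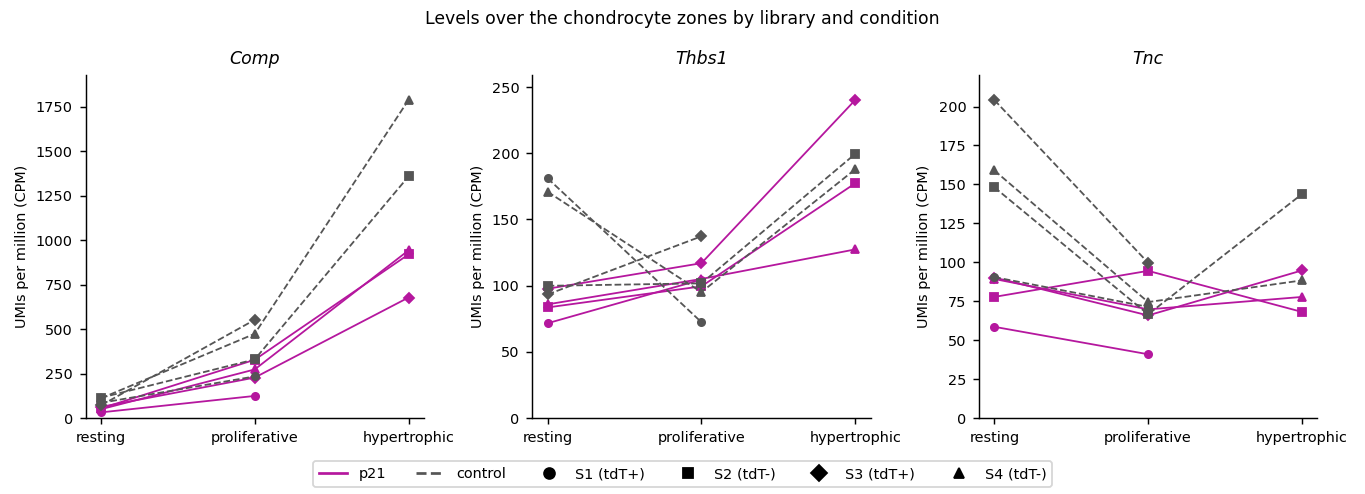
Levels (CPM, axes from 0) of *Comp*, *Thbs1* and *Tnc* over resting, proliferative and hypertrophic or prehypertrophic (marked hypertrophic) chondrocytes, 1 line per library and condition with at least 5 cells (p21 solid, control dashed; marker shape gives the library). *Comp* is highest in hypertrophic cells in every line that reaches them, from 678 to 1789 CPM.

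*Tnn*, at far lower counts, had the same order of zones in the same 3 libraries, from 2.20 ± 0.303 CPM in resting to 5.35 ± 2.90 in proliferative (n = 4 each) and 15.3 ± 3.59 CPM in hypertrophic chondrocytes (n = 3). The 4 resting sums held only 2 to 4 *Tnn* UMIs each. Osteoprogenitors held no *Tnn* UMI (7, 36 and 9 cells in S1, S3 and S4). The highest class of *Tnn* was cluster 7 (234 cells led by *Bmp5* and *Lef1*), at 27.0, 39.3, 31.7 and 43.4 CPM in S1 to S4, which overlapped with 3 other classes. For *Tnc*, hypertrophic cells were below resting cells in 3 of 3 libraries, and the mean of proliferative cells (69.5 ± 5.92 CPM, n = 4) lay under that of every class but muscle among the 16 classes found in at least 2 libraries.

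*Tnc* gave a UMI in 70.4% of kept cells, and in 56.7% of immune cells, which should lack it. After thinning to 5000 UMIs the share was 33.3% in immune cells (95% exact interval 17.3% to 52.8%), 69.2% in cluster 7, 45.5% in tendon, 47.1% in general, 34.2% in resting, 26.3% in hypertrophic and 26.0% in proliferative chondrocytes. Of these, only the interval of cluster 7 (62.5% to 75.4%) lay above that of immune cells, of which there were only 30. How much free RNA adds to the other shares was not tested. Tendon cells were at 392, 364 and 201 CPM in S2, S3 and S4 (9, 5 and 61 cells), cluster 7 at 269, 266, 256 and 249 CPM in S1 to S4, and general chondrocytes at 308, 237, 144 and 147 CPM. The range of tendon overlapped with that of 6 other classes, so no order among these is given. Immune cells were at 84.0 CPM in S4 and muscle at 37.0 ± 24.9 CPM (n = 2).

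*Thbs4*, a thrombospondin of tendon and muscle attachments, was highest in tissue around the cartilage. It was at 222, 762 and 148 CPM in tendon in S2, S3 and S4 and at 88.0, 67.6, 85.4 and 116 CPM in perichondrium or groove in S1 to S4, and these classes overlapped neither each other nor any lower class. The high tendon value of S3 rests on 5 cells and 132 UMIs. That of S2 rests mainly on 5 p21 cells (367 CPM), as its 4 control cells were at 13.4 CPM, whereas control was the higher in S3 and S4. After thinning to 5000 UMIs, 24.7% of tendon cells (95% exact interval 15.6% to 35.8%) held a *Thbs4* UMI. This overlapped with the 20.2% of perichondrium or groove cells (15.3% to 25.8%). Cluster 12 followed at 27.3 ± 19.1 CPM (n = 4), and the 4 chondrocyte classes lay between 1.17 and 2.51 CPM, beside 4.10 CPM in immune cells.

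*Thbs2*, a thrombospondin of perichondrium and connective tissue, was highest in cluster 3, at 163, 153, 189 and 161 CPM in S1 to S4, with osteoprogenitors next and overlapping (109.6 ± 68.3 CPM, n = 3). The class named perichondrium or groove, with no more perichondrium markers than cluster 3, was at 38.0 ± 19.2 CPM (n = 4). Chondrocyte classes were at 5.12 to 9.64 CPM, below the 22.5 CPM of immune cells in S4. *Thbs1* was highest in general chondrocytes, at 220.4, 185, 178 and 207 CPM in S1 to S4. Hypertrophic chondrocytes followed at 191, 225 and 151 CPM in S2 to S4, with overlap. Resting (106 ± 14.3 CPM) and proliferative chondrocytes (102.3 ± 15.8 CPM, n = 4 each) had lower means than clusters 8, 11 and 7. These were at 136.7, 120.8 and 108.6 CPM, and tendon was at 97.6 ± 20.9 CPM (n = 3). *Thbs1* was at 37.0 ± 11.4 CPM in perichondrium and 9.93 ± 9.46 CPM in muscle (n = 4 and 2). *Thbs3* spanned only 33.5 to 79.9 CPM over 15 of the 16 classes, muscle being lower (6.21 ± 0.384 CPM, n = 2).

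**Figure D2:**
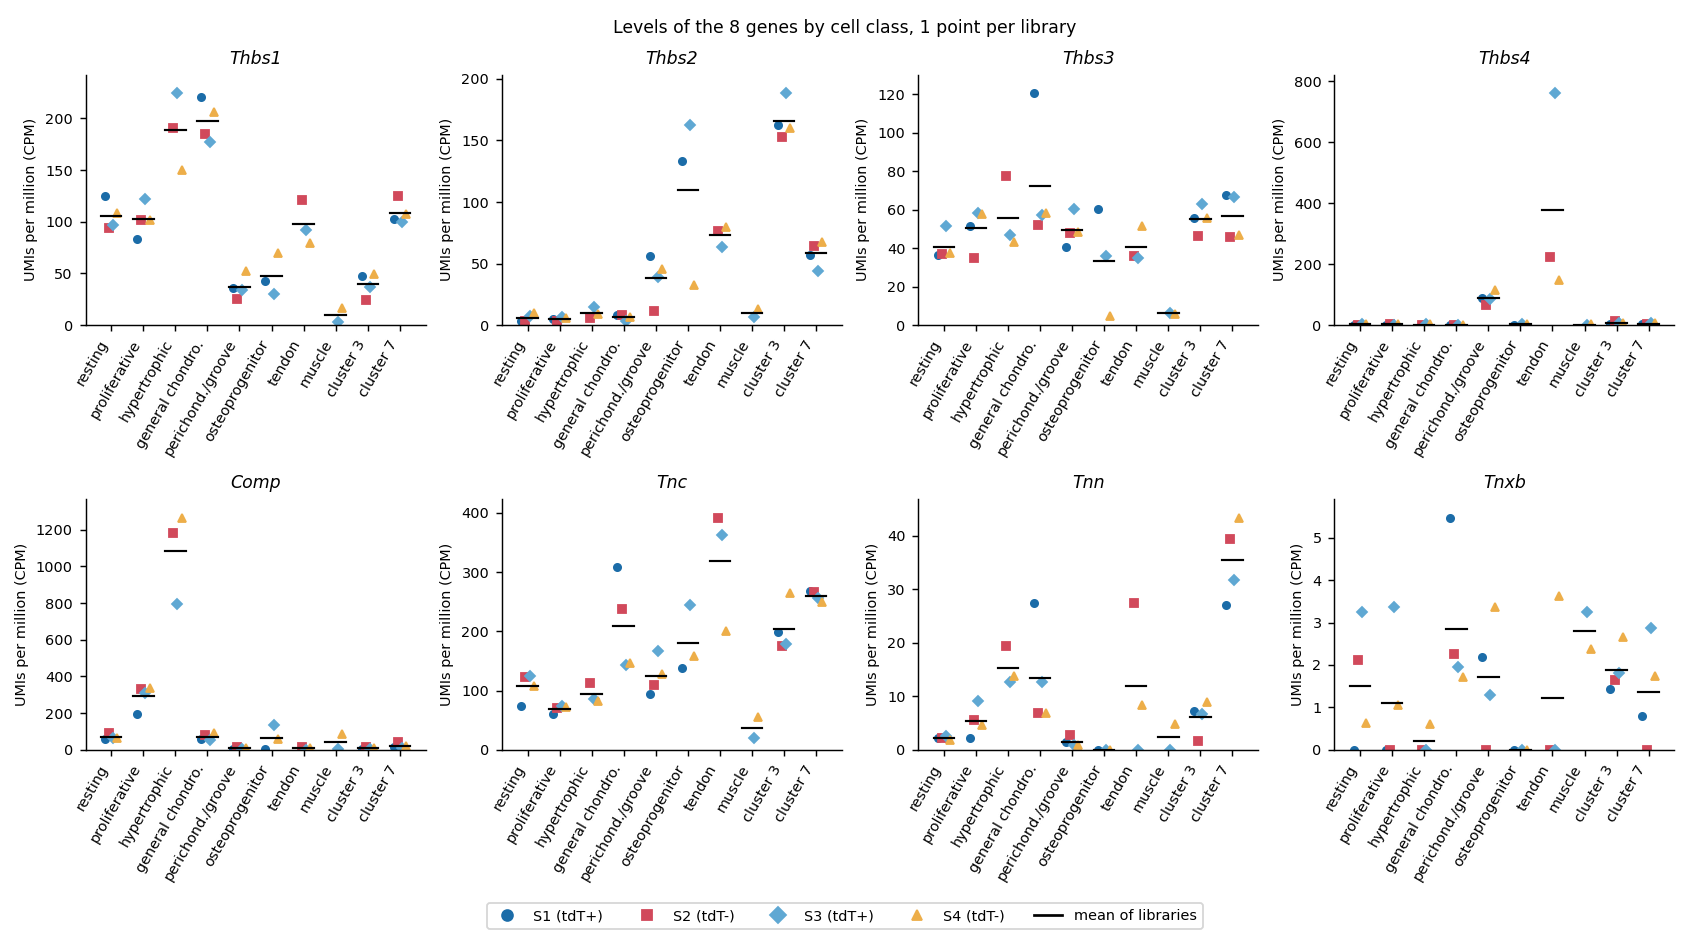
Level of each of the 8 genes (CPM, each panel with its own axis from 0) in 10 of the classes, 1 point per library with at least 5 cells and a bar at the mean of the libraries. *Comp* stands highest in hypertrophic or prehypertrophic chondrocytes (marked hypertrophic, 797 to 1266 CPM), *Thbs4* in tendon (148 to 762 CPM) and *Thbs2* in cluster 3 (153 to 189 CPM).

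Over the 9 named classes the patterns of *Thbs1* and *Thbs3* were the most alike among the 8 genes (Pearson r = 0.88 of log2(CPM + 1)) and those of *Comp* and *Thbs4* the least alike (r = -0.75). These are descriptions over 9 points that share libraries. Among 9663 genes, the 3 most like *Comp* were *Plb1* (r = 0.958), *Ihh* (r = 0.933) and *Ltv1* (r = 0.927). *Thbs2* was most like *Cdh2*, *Col1a1* and *Lasp1* (r = 0.948 to 0.951), *Thbs4* like *Tmem150c*, *Meox2* and *Inhba* (r = 0.955 to 0.961), and *Tnc* like *F3*, *Dnajc1* and *Smarcd1* (r = 0.955 to 0.979). For *Thbs1* these were *Srpr*, *P4hb* and *Acbd3* (r = 0.974 to 0.981), for *Thbs3* *Prxl2c*, *Sec62* and *Tmem39a* (r = 0.962 to 0.971), for *Tnn* *Stk10*, *Clic4* and *Junos* (r = 0.939 to 0.976) and for *Tnxb* *Sowahc*, *Chic2* and *Gpbp1* (r = 0.945 to 0.959).

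The p21 comparison asked which of these genes differed in cartilage when p21 was induced in part of its cells. In all chondrocytes, *Tnc* fell and no other gene of the group passed the test. *Tnc* was at 66.6, 94.2, 91.0 and 89.6 CPM in the p21 sums of S1 to S4 and at 167, 147, 194 and 125 CPM in the control sums. For comparison, immune cells, which should lack *Tnc*, were at 84.0 CPM in S4 without TMM scaling. Every p21 sum lay below every control sum, and the means were 85.3 ± 12.6 and 158 ± 29.3 CPM (SD, n = 4 each). The share of all genes that separate in this way is not given here or below, so such a separation is a description only. The log2 fold change was -0.87 (SE 0.145, edgeR's quasi-likelihood test, adjusted p = 0.0233 over 11305 genes), and the two-sided exact permutation test of the 8 sums gave p = 0.0286, the smallest it can give. Of the 6 genes tested 1 was called, beside 0.743% of all genes tested (84 called, 20 higher and 64 lower). *Thbs4* and *Tnxb*, with 0 to 24 and 0 to 12 UMIs per sum, did not pass the filter on low counts.

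*Tnc* was also lower within the chondrocyte class with its highest level. Among general chondrocytes, p21 cells were at 135, 168, 108 and 122 CPM in S1 to S4 and control cells at 544, 252, 392 and 235 CPM, again without overlap. Tested there alone, an alternative added after the data were seen, the log2 fold change was -1.41 (edgeR's test, adjusted p = 0.0684). The share of general cells among chondrocytes was 35.6%, 17.1%, 40.4% and 31.6% in p21 and 30%, 28.6%, 28.6% and 20.8% in control, and was lower in p21 in 1 of 4 libraries (S2). With both fractions of a pool added together (2 against 2) the fold change was -0.84 and the adjusted p by edgeR 0.0866. Without p21 S2, p21 S3, control S1 or control S3 in turn the adjusted p was 0.0547, 0.0876, 0.0685 and 0.0641, so the call rests on all of these sums.

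**Figure D3:**
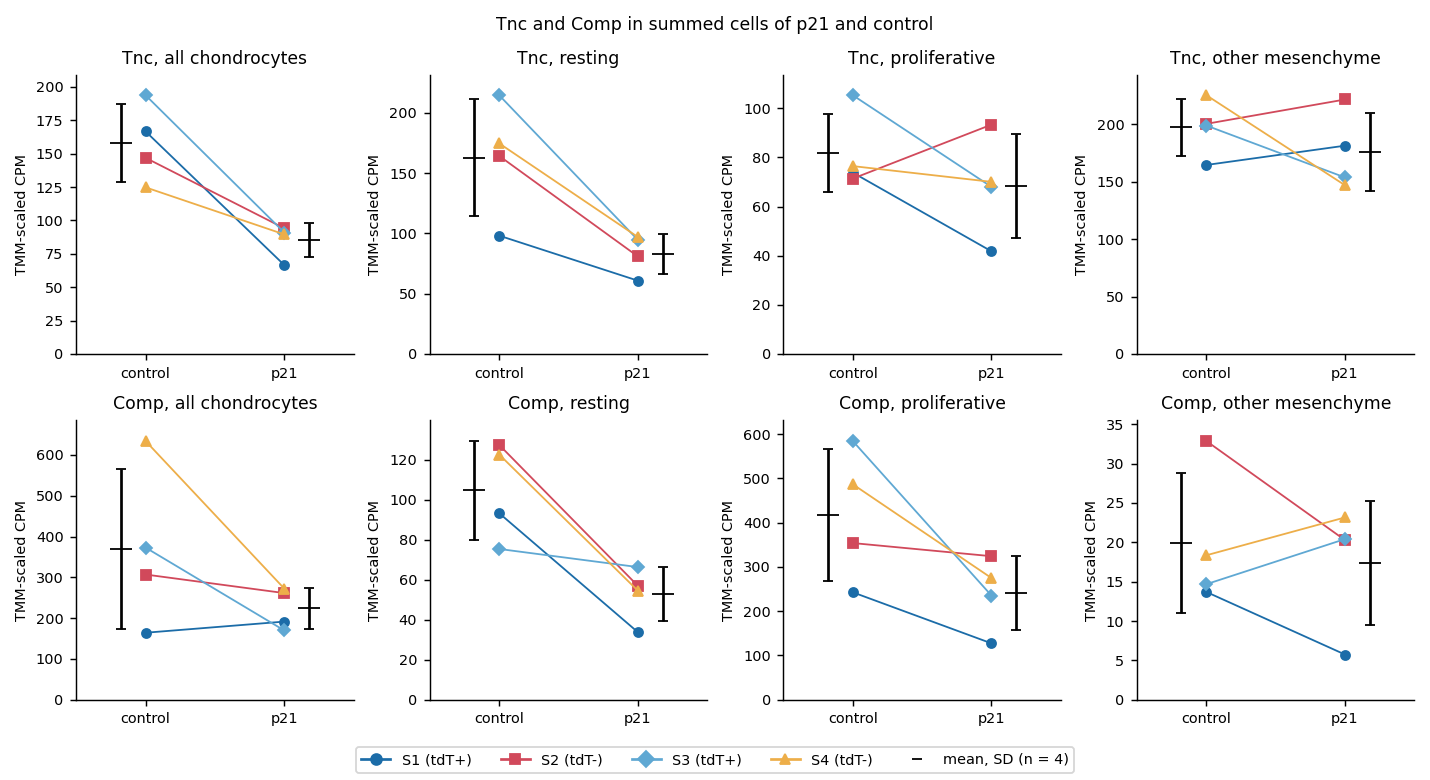
*Tnc* (top) and *Comp* (bottom) in the control and p21 sums of all, resting and proliferative chondrocytes and of the other mesenchyme (TMM-scaled CPM, axes from 0). Lines join the sums of 1 library, and bars beside them give the mean and SD of 4; in all chondrocytes the p21 sums of *Tnc* (66.6 to 94.2 CPM) lie under all control sums (125 to 194 CPM).

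*Comp* was lower in 3 of 4 libraries but overlapped between conditions in all chondrocytes. It was at 192, 262, 169.9 and 273 CPM in p21 and 164, 307, 373 and 634 CPM in control. The log2 fold change was -0.70 (SE 0.244, adjusted p = 0.294 by edgeR). The share of hypertrophic cells, where *Comp* was highest, also differed between sums and was 4.44%, 14.6%, 7.69% and 13.6% in p21 and 0%, 10%, 2.38% and 21.9% in control chondrocytes. This share was higher in p21 in 3 of 4 libraries (S1, S2 and S3), of which *Comp* was lower in S2 and S3. Within the hypertrophic class, p21 cells were at 921 and 943 CPM in S2 and S4 (6 and 40 cells) and control cells at 1359 and 1789 CPM (14 and 21 cells). In S3 the values were 678 CPM in 12 p21 cells and 1484 CPM in 1 control cell, and S1 held no control cell of this class. The class was not tested.

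In resting chondrocytes the p21 sums of *Comp* and of *Tnc* lay below all control sums, though neither gene passed the adjusted threshold. The share of all genes tested that separate in this way is not given here, so the separation is a description only. *Comp* was at 33.8, 56.9, 66.3 and 54.5 CPM in p21 and 93.2, 127, 75.3 and 123 CPM in control, and *Tnc* at 60.8, 80.9, 94.5 and 96.9 CPM against 98.1, 164, 215 and 175 CPM. The log2 fold changes were -0.92 (SE 0.224) for *Comp* and -0.93 (SE 0.229) for *Tnc*, each with an adjusted p of 0.168 by edgeR and an exact permutation p of 0.0286. For comparison, immune cells were at 82.0 CPM of *Comp* in S4. *Thbs1* was at 89.2 ± 11.8 in p21 and 148 ± 50.9 CPM in control (n = 4 each; log2 fold change -0.70, SE 0.235, adjusted p = 0.340 by edgeR), with overlap. None of the 4 genes tested was called, beside 0.110% of 6335 genes, but 3 of the 4 had an unadjusted p under 0.05, all lower (606 of all genes tested). DESeq2 called *Tnc* (adjusted p = 0.0471).

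In proliferative chondrocytes *Comp* was lower in p21 in 4 of 4 libraries, at 127, 324, 235 and 275 CPM against 243, 354, 584 and 487 CPM. The groups overlapped, and the log2 fold change was -0.82 (SE 0.273, adjusted p = 0.631 by edgeR). *Tnc* was at a log2 fold change of -0.28 there (SE 0.234, 95% interval -0.79 to 0.23), and *Thbs1* and *Thbs3* were at 0.04 (SE 0.205) and 0.02 (SE 0.226). None of the 4 genes tested was called, beside 0.0694% of 8643 genes (6 called, 495 at an unadjusted p under 0.05, 1 of them *Comp*). DESeq2 called 32 genes and none of the 4. In simulated counts a log2 change of 1 was recovered in only 32% of cases in this class by edgeR.

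The other thrombospondins and tenascins tested in all chondrocytes did not pass. *Thbs2*, at 3 to 58 UMIs per sum, had a log2 fold change of 0.55 (SE 0.339), *Thbs1* of -0.17 (SE 0.125), *Thbs3* of -0.13 (SE 0.132) and *Tnn* of 0.13 (SE 0.335). The 95% intervals were -0.19 to 1.29, -0.44 to 0.10, -0.42 to 0.15 and -0.60 to 0.86.

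The mesenchyme was made up of all kept cells outside the chondrocyte, muscle and immune classes. It included unnamed clusters with some cartilage markers, as clusters 11 and 18 each held 4 of 9 general chondrocyte markers. In this mesenchyme none of the 7 genes tested was called (0% of 13791 genes by edgeR, 746 at an unadjusted p under 0.05 but none of the 7; DESeq2 called 3 genes and limma voom none). *Tnc* was at 181, 222, 154 and 147 CPM in p21 and 165, 200.3, 199 and 225 CPM in control, with -0.18 as the log2 fold change (SE 0.124, 95% interval -0.45 to 0.09). *Thbs2* was at -0.13 (SE 0.114), *Thbs1* at 0.13 (SE 0.0913), *Thbs3* at 0.09 (SE 0.106), *Thbs4* at 0.10 (SE 0.390), *Comp* at -0.10 (SE 0.309) and *Tnn* at -0.30 (SE 0.293). Whether the *Tnc* difference is larger in chondrocytes than in mesenchyme was not tested.

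**Figure D4:**
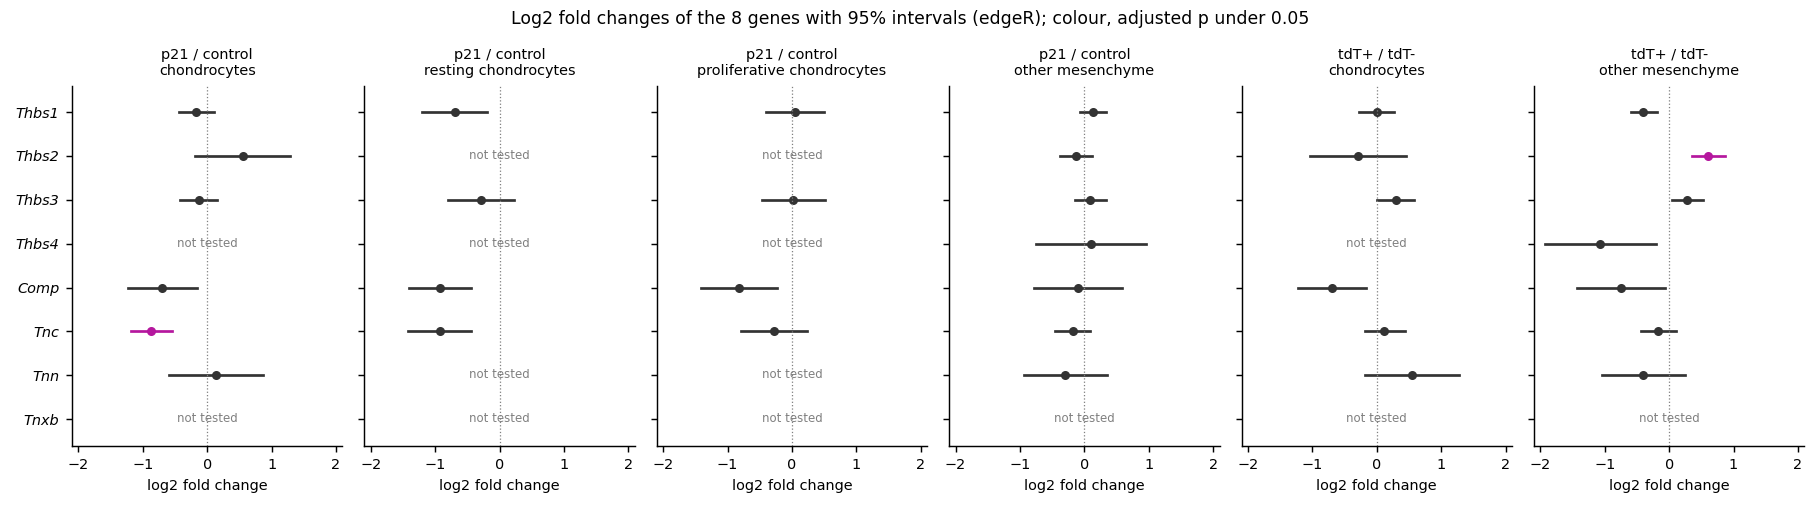
Log2 fold changes of the 8 genes with 95% intervals from edgeR in 6 comparisons, p21 over control and tdT+ over tdT-, with genes under the count filter marked as not tested. Colour marks an adjusted p under 0.05, reached by *Tnc* in p21 chondrocytes (-0.87) and *Thbs2* in tdT+ mesenchyme (0.60).

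The sort compared the *Gli1* lineage with the remaining cells. In the mesenchyme *Thbs2* was higher in tdT+ cells. It was at 98.7 and 70.1 CPM in the p21 sums and 84.1 and 96.8 CPM in the control sums of S1 and S3, against 54.1 and 54.4 CPM (p21) and 63.0 and 58.2 CPM (control) in S2 and S4. Every tdT+ sum lay above every tdT- sum (87.4 ± 13.2 against 57.4 ± 4.17 CPM, SD, n = 4 each). As the share of all genes that separate so is not given, this too is a description only. The log2 fold change was 0.60 (SE 0.115, edgeR's test, adjusted p = 0.0410 over 13791 genes), with an exact permutation p of 0.0286. It was 1 of 7 genes tested, beside 0.812% of all genes (112 called). With the embryo pool as a block the adjusted p was 0.0268, and 205 genes were called.

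The share of cluster 3 differed with the sort, which selects by the *Gli1* lineage label, at 32.3% and 21.2% of the mesenchyme in S1 and S3 and 14.04% and 7.57% in S2 and S4, and *Thbs2* was highest in that cluster. Within cluster 3 the log2 fold change was 0.15 (adjusted p = 0.981), and outside it 0.25 (adjusted p = 0.888), both by edgeR and both added after the data were seen. The call was also lost when the top 10% of doublet scores were left out (0.60, adjusted p = 0.0507) and in 7 of 8 fits that left out 1 sum, with adjusted p values up to 0.141. The log2 fold change in the 8 fits was 0.49 to 0.70. Only without p21 S3 was it kept (adjusted p = 0.0164).

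**Figure D5:**
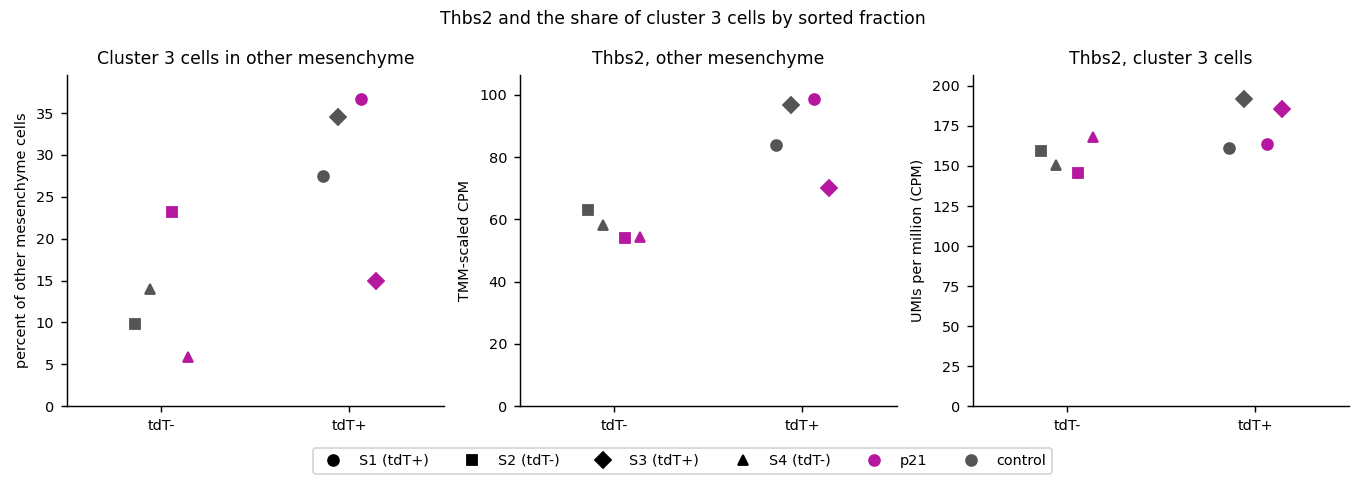
By sorted fraction and with 1 point per library and condition, the share of cluster 3 in the other mesenchyme (left, percent), *Thbs2* in that mesenchyme (middle, TMM-scaled CPM) and *Thbs2* in cluster 3 alone (right, CPM), all axes from 0. The shares reach 5.84% to 23.2% in tdT- and 14.9% to 36.7% in tdT+ sums, and *Thbs2* in the mesenchyme 54.1 to 63.0 and 70.1 to 98.7 CPM.

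The other genes of the group did not pass in the mesenchyme. *Thbs1* was lower in tdT+ cells without overlap (a description only, as for *Thbs2*), at 63.3 and 64.0 CPM (p21) and 60.9 and 52.5 CPM (control) against 72.8 and 87.6 CPM (p21) and 78.3 and 75.0 CPM (control). Its log2 fold change was -0.40 (SE 0.0915, adjusted p = 0.0861 by edgeR), and DESeq2 called it (adjusted p = 0.0304). *Thbs4* was at -1.07 (SE 0.391, adjusted p = 0.341 by edgeR) with overlap. Its control sum in S2 held 23 UMIs and was the lowest of the 8 (10.4 CPM), and without that sum the value was -1.43 and the adjusted p 0.00882. Of the 8 fits of *Thbs4* that left out 1 sum, only this 1 passed. Over these fits *Thbs4* was at -1.43 to -0.76, with adjusted p values up to 0.668 by edgeR. Tendon cells, its highest class, made up 0.576% and 0.696% of the mesenchyme in S1 and S3 and 5.06% and 11.3% in S2 and S4, and their part in this value was not tested. *Comp* (-0.75, SE 0.309), *Thbs3* (0.28, SE 0.107), *Tnc* (-0.17, SE 0.124) and *Tnn* (-0.40, SE 0.295) were not called, with adjusted p values of 0.368 to 0.750 by edgeR.

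In chondrocytes no gene of the group was called between fractions (6 tested, beside 0.0177% of 11305 genes). *Comp* was lower in tdT+ cells of 4 of 4 pools, at 192 and 169.9 CPM (p21) and 164 and 373 CPM (control) against 262 and 273 CPM (p21) and 307 and 634 CPM (control), its log2 fold change being -0.70 (SE 0.244, adjusted p = 0.999 by edgeR). With the embryo pool as a block the value was -0.71 and *Comp* was called (adjusted p = 0.0119), among 8 genes. Hypertrophic cells made up 1.91% and 6.57% of chondrocytes in the tdT+ libraries S1 and S3 and 11.1% and 15.6% in S2 and S4, and their part was not tested. *Tnc* did not separate by fraction (0.12, SE 0.144, 95% interval -0.19 to 0.44), and *Thbs3* was at 0.30 (SE 0.132, unadjusted p = 0.0435 by edgeR).

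Whether the p21 difference itself differed between fractions was tested by the interaction. No gene of the 6 in chondrocytes or the 7 in mesenchyme was called, beside 0% of all genes in each (319 and 351 at an unadjusted p under 0.05; DESeq2 called 0 and 2). For *Tnc* in chondrocytes the interaction was -0.60 (SE 0.245, unadjusted p = 0.0330, adjusted p = 0.9999 by edgeR).

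Partners of these proteins were described by counts from 4 lists. In p21 chondrocytes *Matn3*, a matrilin that binds COMP, fell by 1.33 on the log2 scale (SE 0.157, adjusted p = 0.00344 by edgeR). *Ccn2*, another matricellular gene, fell by 1.54 (SE 0.129, adjusted p = 6.57e-04 by edgeR). These were the 1 of 10 cartilage matrix partners and the 1 of 6 other matricellular genes that passed there. None of 13 cell surface receptors or 6 genes of TGF-beta and its latent binding proteins did, the largest at an unadjusted p under 0.05 being *Itgav* and *Lrp1* (0.36 each) and *Ltbp3* (0.59, SE 0.157). The list medians were -0.13 for matrix partners, -0.39 for matricellular genes, 0.11 for receptors and 0.13 for TGF-beta genes, beside 0.00 over all genes and -0.15 over the 6 members. In resting chondrocytes *Matn3* passed again (-1.81, SE 0.251, adjusted p = 0.0120 by edgeR), 1 of 9 matrix partners, and in proliferative chondrocytes *Ccn2* (-1.70, SE 0.271, adjusted p = 0.0469 by edgeR), 1 of 5 matricellular genes.

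No further gene of these lists passed the test in any comparison. In resting chondrocytes *Ltbp1* (0.73) and *Ltbp3* (0.57) led the 3 TGF-beta genes, *Ccn2* (-1.63) and *Sparc* (0.26) the 6 matricellular genes, and none of 12 receptors had an unadjusted p under 0.05. In proliferative chondrocytes these were *Cacna2d1* (0.53), a receptor, and *Matn3* (-1.03) and *Matn1* (-0.29), and in p21 mesenchyme *Itga8* (0.40), *Matn4* (-0.49) and *Postn* (0.37). Between fractions of chondrocytes they were *Itga8* (-1.11), *Egfr* (0.87), *Col2a1* (-0.22), *Col9a2* (-0.17), *Tgfb2* (-0.29), *Spp1* (-2.77) and *Ccn2* (-0.60). Between fractions of mesenchyme they were *Cacna2d1* (-0.40), *Itgb5* (0.38), *Acan* (-0.49), *Col9a2* (-0.40), *Ltbp4* (-0.72), *Ltbp3* (-0.46), *Spp1* (1.45) and *Tgfbi* (-0.33), and in the interaction of chondrocytes *Spp1* (3.91) and *Fn1* (0.98). The interaction of mesenchyme gave none.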

How the data were processed

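Whole-number UMI counts per gene and barcode were used as deposited for 4 libraries (11945062 to 39435830 UMIs each). The authors made these counts with Cell Ranger 7.2.0 against mm10 with the transgene sequences added. Their later steps for ambient RNA and doublets (CellBender and DoubletFinder) do not enter the deposited counts and were not rerun, so free RNA remains in all values. The 8 genes and the related lists were chosen with earlier results of these data known.

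Barcodes with at least 1000 UMIs, 500 genes and at most 10% mitochondrial UMIs were kept. Sex, and by the study's methods condition, was called from *Xist* against 4 Y-linked genes (at least 2 UMIs, 80% on 1 side), which left out 277 barcodes with both and all without a call, and the top 5% of Scrublet scores were left out. Condition is thus crossed with sex, and each pool has 1 sex. Cells were clustered in scanpy 1.11.5 (2000 variable genes, 30 principal components, 15 neighbours, Leiden resolution 1). A marker counted when found in 10% of cells and at 1.5-fold. Clusters with a share of at least 0.5 of the general chondrocyte list, or led by a zone list, took the name of the zone (resting, proliferative, hypertrophic) whose list had at least 3 markers, a share of 0.5, a lead of 0.15 over the other zones and a marker among the leading genes, and otherwise were called general chondrocytes if that list passed. The remaining clusters were named in the same way from the other lists, with the chondrocyte lists left out of the lead. These naming thresholds were set after the clusters were seen. The embryo counts in the study's text differ between places and are not given here.

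UMIs were summed by library and condition (843736 to 7685175 UMIs for chondrocytes, 1342556 to 10563183 for mesenchyme) and tested with edgeR 4.0.16 (quasi-likelihood, TMM, filterByExpr, with fraction or condition as covariate), Benjamini-Hochberg adjusted over all genes tested, with 0.05 as threshold. Single genes were also compared by a two-sided exact permutation test in scipy 1.17.1. It permuted the 8 sums freely, without their pairing, although the fractions of a pool share embryos, so its p values are not those of independent pools. The fits were tested on simulated counts first. There 5.98% of calls were false in p21 chondrocytes and 7.37% between fractions of mesenchyme, with 3.82% to 9.76% over all comparisons. A simulated log2 change of 1 was recovered in 73%, 62% and 32% of cases in all, resting and proliferative p21 chondrocytes. In the interactions of chondrocytes and mesenchyme this was 7% and 21%. DESeq2 1.42.0 and limma 3.58.1 (voom) were alternatives, with other filters, doublet limits, resolution and sums left out. All 8 genes are named. Of the related lists, genes past the threshold are named, and where a list had none, the 2 with the largest change at an unadjusted p under 0.05. The number of UMIs sets the precision, and intervals of shares cover counting error only.

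The tdT+ and tdT- sums of 1 pool come from the same embryos and are paired by design. Their deviations from the group means correlated at 0.152 to 0.374 in chondrocytes and 0.0449 to 0.308 in mesenchyme. The p21 and control sums of 1 library share only a sort and a run.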

Additional observations from a re-analysis of the deposited data

Results flagged for a closer look

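Among 55 groups of 4 sums, 5 held a value far from the other 3 by Dixon's criterion, and chance flags about 1 in 20 groups. In p21 chondrocytes these were *Tnc* in S1 (66.6 CPM against 89.6 to 94.2 CPM) and *Thbs3* in S2 (43.0 CPM against 53.8 to 55.3 CPM). *Thbs3* was also low in p21 proliferative cells of S2 (39.3 CPM against 56.4 to 57.9 CPM, 9 cells). In control proliferative cells *Tnc* was high in S3 (105 CPM against 71.4 to 76.5 CPM, 13 cells), and in p21 mesenchyme *Comp* was low in S1 (5.74 CPM against 20.3 to 23.2 CPM). Without the p21 sum of S1 *Tnc* was still called in chondrocytes.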

How the results depend on the processing

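Directions were followed for the 31 of 47 log2 fold changes larger than their own SE. The other 16 were taken as having no direction and could change sign, as *Tnn* in p21 chondrocytes (-0.15 to 0.48) and *Comp* in p21 mesenchyme (-0.56 to 0.15). Of 569 values of those 31 under alternatives, 538 kept their direction and side of the threshold, 16 lost the call, 12 gained one and 3 reversed. Those reversed were *Thbs2* in p21 mesenchyme (0.01 outside cluster 3 and 0.04 in cluster 3 alone) and *Thbs1* between fractions in cluster 3 alone (0.12), none of them past the threshold.

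Members called in p21 chondrocytes were 1 as given, 2 with no filter on low counts, 0 with the fractions of a pool summed, 0 in general chondrocytes alone and 0 to 1 with 1 sum left out. In resting cells none was called as given, 2 without the filter and 1 by DESeq2, and in proliferative cells none and 1 without the filter. Between fractions of chondrocytes none was called as given, 1 without the filter and 1 with the embryo pool as replicate block. Between fractions of mesenchyme 1 was called as given, 4 without the filter, 2 by DESeq2, 0 with the top 10% of Scrublet scores left out, 0 outside cluster 3, 0 in cluster 3 alone and 0 to 1 with 1 sum left out. The causes were not tested. Over all genes, calls without the filter rose from 84 to 519 in p21 chondrocytes. They rose from 7 to 135 in resting and from 6 to 160 in proliferative cells. Between fractions they rose from 2 to 202 in chondrocytes and from 112 to 809 in mesenchyme. The member calls gained without the filter are thus not read as a result about these genes. The blocks changed no other call of a member. With the library as replicate block *Tnc* in p21 chondrocytes was at -0.87 (adjusted p = 0.0360 by edgeR), and the p21 and control sums of a library did not deviate together (r = -0.0500 to 0.0992 in chondrocytes, -0.00405 to 0.185 in mesenchyme).

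Counts over all genes in p21 chondrocytes were 84 as given, 519 unfiltered, 175 by DESeq2, 50 with the stricter Scrublet limit, 31 with the stricter sex call, 10 with pools summed, 1 in general chondrocytes alone and 19 to 90 with 1 sum left out. Resting cells gave 7, 135 unfiltered, 30 by DESeq2, 11 by voom, 1 without covariate, 13 with pools summed and 0 to 25 with 1 sum left out. Proliferative cells gave 6, 160 unfiltered, 32 by DESeq2, 12 by voom, 0 with the stricter Scrublet limit, 1 at resolution 0.6, 0 with the replicate block and 0 to 20 with 1 sum left out. In p21 mesenchyme none was called as given, 201 unfiltered and 3 by DESeq2. Fractions of chondrocytes gave 2, 202 unfiltered, 9 by DESeq2, 3 by voom, 1 with the stricter sex call, 8 with the replicate block and 0 in general chondrocytes alone. Fractions of mesenchyme gave 112, 809 unfiltered, 272 by DESeq2, 205 with the replicate block, 43 outside cluster 3, 3 in cluster 3 alone and 52 to 147 with 1 sum left out. The unfiltered interactions gave 45 and 76.

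At resolution 0.6 no resting, hypertrophic or perichondrium cluster was named, 11 of 40 levels by class moved by more than 1 SD, and the resting comparison has no value. The levels given for these classes thus have no counterpart there. Low UMI counts limit *Tnn*, *Tnxb* and, in cartilage, *Thbs2* and *Thbs4*.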
